A study of Mus musculus with 4 samples.

Results

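GABA-A receptor subunit genes were described across the 3 embryonic cortex libraries of a mouse Prdm16 study: Gabra2, Gabra3, Gabra4, Gabra5, Gabrb1, Gabrb2 and Gabrg1. These 7 genes were taken by symbol from the 19968 genes listed in both deposited tables, and 4 of them (Gabra2, Gabrg1, Gabra4 and Gabrb1) lie side by side on chromosome 5. They were selected on their counts in these libraries, the cKO to floxed ratios that are described here, so their differences between cKO and floxed are given as a description and carry no test. All 7 passed the expression filter, as did 5 further subunit genes that were set beside them.

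The RNA came from dissected cerebral cortex at embryonic day 15, and the strain was C57BL/6. The libraries labelled Prdm16cKO (conditional knockout, called cKO 1 and cKO 2) came from embryos given as conditional knockouts of Prdm16, a zinc-finger transcriptional regulator of cortical radial glia. The library labelled Prdm16fl/fl (called floxed) came from embryos with floxed Prdm16 alleles. The labels name neither the Cre line nor the deleted exon, list 2 samples in each group where the series text speaks of triplicates and calls the tissue telencephalic, a wider term than cortex, and add the word Blood, unexplained, to the title of 1 sample of each group. Which sample gave which of the 3 libraries is not shown, and the other floxed sample was not analysed here. Nothing in the labels says that the cKO libraries came from separate animals, so their spread may be technical.

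The libraries of cKO 1 and cKO 2 held 19514882 and 18579178 counts, and that of floxed 17839662, so that 1 CPM (1 count in 1000000 of the library) stood for 17.8 to 19.5 reads. Prdm16 itself had 676 counts in cKO 1 and 447 in cKO 2, against 538 in floxed, or 34.6, 24.1 and 30.2 CPM. It was higher in cKO 1 and lower in cKO 2 than in floxed, so the libraries are called by their labels throughout. The meningeal and fibroblast markers of a list of 10 (such as collagens, Dcn and Slc6a13) summed to 1310 CPM in cKO 1 and 89.0 CPM in cKO 2, against 837 CPM in floxed. The 6 endothelial markers summed to 273 CPM in cKO 1 and 132 CPM in cKO 2, against 222 CPM in floxed. None of these genes lay on 1 side of floxed in both cKO libraries beyond counting error, none was at 0, and the lowest was Slc6a13, with 787 counts in cKO 1 and 1 in cKO 2, against 450 in floxed. The part of meningeal and vascular cells in the values below was not tested.

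GABA-A receptors are pentameric chloride channels opened by GABA, usually assembled from alpha, beta and gamma subunits, with the alpha and gamma subunits setting much of the pharmacology and placement of the receptor. In the embryonic cortex chloride is high inside immature cells, so these receptors depolarise progenitors and young neurons, and GABA acts there on proliferation, migration and maturation before inhibitory synapses form. Which alpha subunit is used changes with age, and alpha2, alpha3 and alpha5 (Gabra2, Gabra3, Gabra5) are known as the early forms. The subunit genes sit in clusters in the mammalian genome. The C57BL/6J substrain is known to carry an intronic variant that lowers the Gabra2 transcript. The labels give the strain without a substrain, and the genotype at Gabra2 was not analysed here.

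The chromosome 5 cluster spanned 1.40 Mb (GRCm38 chromosome 5, 70751047 to 72149037) with no other listed gene inside it. From the centromeric end, Gabrg1 (ENSMUSG00000001260, 70751047 to 70842617, minus strand) was followed after 115 kb by Gabra2 (ENSMUSG00000000560, 70957597 to 71095849, minus strand). After a further 474 kb came Gabra4 (ENSMUSG00000029211, 71569749 to 71658308, minus strand), which stands head to head with Gabrb1 (ENSMUSG00000029212, 71658113 to 72149037, plus strand). The spans of Gabra4 and Gabrb1 overlap by 196 bases, and 46 exonic bases are shared, which is 0.756% of the exonic length of Gabra4 and 0.332% of that of Gabrb1. The library kit does not mark strand, so reads from those bases cannot be told apart.

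The RefSeq promoter windows of the 4 cluster genes (GRCm38.p6, 250 bases before to 50 bases after the start site, 5′ to 3′ on the gene's own strand) are shown because genes that stand together in 1 cluster differed widely in the sequence around their starts. Capitals mark CpG dinucleotides. Gabra2, Gabra4 and Gabrg1 lie on the minus strand, at chr5:71095800-71096099, chr5:71658259-71658558 and chr5:70842568-70842867, and Gabrb1 on the plus strand, at chr5:71657671-71657970.
Gabra2: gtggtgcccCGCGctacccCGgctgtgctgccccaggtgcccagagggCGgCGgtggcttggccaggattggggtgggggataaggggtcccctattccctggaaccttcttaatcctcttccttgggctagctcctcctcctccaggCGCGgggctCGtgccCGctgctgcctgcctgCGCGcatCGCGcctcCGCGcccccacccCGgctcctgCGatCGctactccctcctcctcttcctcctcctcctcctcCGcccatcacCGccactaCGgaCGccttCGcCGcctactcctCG
Gabrg1: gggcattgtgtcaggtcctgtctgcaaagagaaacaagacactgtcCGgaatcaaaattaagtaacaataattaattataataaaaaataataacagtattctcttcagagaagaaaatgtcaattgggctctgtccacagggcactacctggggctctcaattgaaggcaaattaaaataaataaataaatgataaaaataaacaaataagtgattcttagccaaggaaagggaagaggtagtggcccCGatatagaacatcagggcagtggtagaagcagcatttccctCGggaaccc
Gabra4: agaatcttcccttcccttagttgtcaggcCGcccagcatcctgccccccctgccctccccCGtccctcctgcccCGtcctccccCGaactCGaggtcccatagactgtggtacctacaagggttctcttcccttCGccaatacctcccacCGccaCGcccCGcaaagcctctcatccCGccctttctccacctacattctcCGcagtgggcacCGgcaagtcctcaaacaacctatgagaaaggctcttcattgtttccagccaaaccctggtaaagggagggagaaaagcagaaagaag
Gabrb1: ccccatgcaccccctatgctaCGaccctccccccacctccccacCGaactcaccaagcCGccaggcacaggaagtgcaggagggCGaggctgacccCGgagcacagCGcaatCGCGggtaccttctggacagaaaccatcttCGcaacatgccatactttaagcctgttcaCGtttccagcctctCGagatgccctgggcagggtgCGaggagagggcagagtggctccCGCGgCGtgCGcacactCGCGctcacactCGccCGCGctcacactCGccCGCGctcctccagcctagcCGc

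The Gabra2 and Gabrb1 windows each held 25 CpG dinucleotides, more than 81.6% of the 32851 full RefSeq mouse promoter windows, whose median was 7. The Gabra4 window held 12 CpG, more than 60.4% of windows, and the Gabrg1 window only 3, more than 23.3%. GC content was 70.0% for Gabra2, 66.0% for Gabrb1, 58.7% for Gabra4 and 38.3% for Gabrg1, against a median of 52.7% over all windows. The Gabra2 window thus lay at the CpG-rich end and the Gabrg1 window, with its AT-rich runs, at the CpG-poor end. These are the cluster genes with the highest count ratios of cKO to floxed below, and Gabrb1, with as many CpG as Gabra2, had lower ratios. Any relation of promoter sequence to the ratios was not tested. The Gabrb1 start in RefSeq lies 192 bases before the start given in the deposited tables, and RefSeq holds a second Gabrb1 window with 9 CpG.

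A few motifs were searched on both strands of the windows of all 7 genes. The letters TATAAA stand in 13.6% of all windows and were found in those of Gabra3 and Gabrb2. The letters CACGTG (an E-box) stand in 7.15% of windows and TGACGTCA (a cyclic AMP response element) in 1.79%, and neither was found in a window of the 7 genes. A missing match says only that these letters are not in this window.

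Gabra2 stood apart from the other 6 genes. It encodes the alpha2 subunit, which in mature neurons is enriched at the axon initial segment and in embryonic forebrain is among the main alpha subunits. It had 2368 counts in cKO 1 and 1435 in cKO 2, against 694 in floxed, or 121, 77.2 and 38.9 CPM. Both cKO libraries lay far above the floxed library, and they also lay apart from each other. The cKO mean was 99.3 ± 31.2 CPM (SD, n = 2 libraries), against 38.9 CPM in the single floxed library. In bulk tissue more cells of a type and more RNA per cell cannot be told apart, and this holds for every value given here.

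The Gabra2 ratio to floxed was 3.12 in cKO 1 (95% counting interval 2.86 to 3.40) and 1.99 in cKO 2 (1.81 to 2.18), and cKO 1 over cKO 2 was 1.57 (1.47 to 1.68). These intervals are exact binomial intervals of a ratio of read counts and cover counting error only, not variation between embryos. The excess in cKO was thus larger than counting error in either library, and its size differed between the 2 cKO libraries by more than counting error. The fitted log2 fold change of cKO over floxed was 1.36, with a standard error of 0.29. That error was worked out from the edgeR test statistic, which draws on variation pooled over all genes. It is not the spread of Gabra2 alone between the cKO libraries. In the authors' deposited tables, which compare 1 library with 1 library, Gabra2 was marked significant for cKO 1, with a log2 fold of 1.64, and not for cKO 2, with a log2 fold of 0.99. The genes marked there had absolute log2 folds of at least 1.

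Few genes reached such ratios in both cKO libraries. Of 16658 tested genes, 67 were at least as high as Gabra2 in both, and of the 11553 with a mean of at least 5 CPM there were 3: Fgf15, Moxd1 and Ptx3. For Gabrg1 the same counts were 236 and 21, for Gabrb1 629 and 123, and for Gabra4 786 and 200. The cluster genes therefore took different places in this order, with Gabra2 near its top.

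Gabrg1 encodes the gamma1 subunit, which is sparse in most of the adult brain and is known from the amygdala and some glial cells. It had 138 counts in cKO 1 and 113 in cKO 2, against 70 in floxed, or 7.07, 6.08 and 3.92 CPM. Both cKO libraries lay above floxed and close to each other, with a mean of 6.58 ± 0.700 CPM (SD, n = 2) against 3.92 CPM. The ratio was 1.80 in cKO 1 (1.34 to 2.44) and 1.55 in cKO 2 (1.14 to 2.12), so both intervals lay above 1, on few reads. The fitted log2 fold change was 0.76 with a standard error of 0.33.

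Gabra4 encodes alpha4, a subunit of extrasynaptic receptors in the adult thalamus and dentate gyrus. It had 193 counts in cKO 1 and 181 in cKO 2, against 140 in floxed, or 9.89, 9.74 and 7.85 CPM. Both cKO libraries were again the higher ones, but by ratios of 1.26 (1.01 to 1.58) and 1.24 (0.990 to 1.56), the second of which included 1. With totals scaled by TMM its interval lay above 1 in both libraries. Gabrb1, which encodes beta1, had 251 counts in cKO 1 and 282 in cKO 2, against 194 in floxed, or 12.9, 15.2 and 10.9 CPM. Its order within the cKO group was the reverse of that of Gabra2: cKO 2 had the higher ratio, 1.40 (1.16 to 1.68), and the interval of cKO 1, 1.18 (0.977 to 1.43), included 1.

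All 4 cluster genes were thus higher in both cKO libraries than in floxed, but only Gabra2 and Gabrg1 by more than counting error in each. The cluster medians were log2 0.59 in cKO 1 and 0.56 in cKO 2, against 0.01 and -0.04 over all 16658 tested genes. Both comparisons use the same floxed library, so a low count there would raise the 2 ratios of a gene together.

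**Figure D1:**
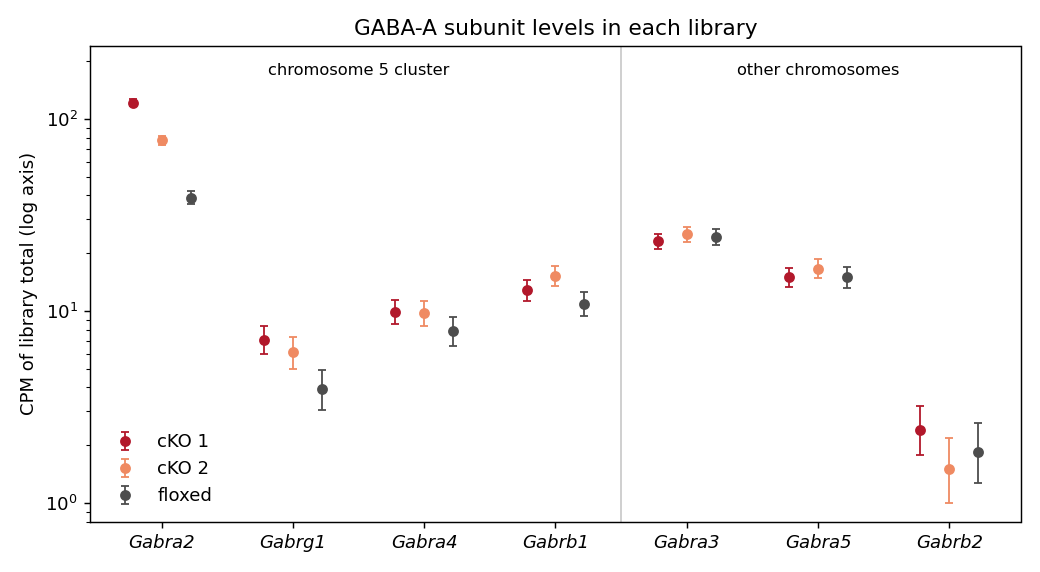
Level of each of the 7 subunit genes in each library, in CPM of the library total on a log axis, with exact 95% Poisson intervals of the count as bars. Gabra2 has the widest separation, with 121 CPM in cKO 1 and 77.2 CPM in cKO 2, against 38.9 CPM in floxed. The intervals of Gabra3, Gabra4, Gabra5 and Gabrb2 overlap across all 3 libraries.

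The 3 genes from other chromosomes lay close to floxed or on either side of it. Gabra3 (ENSMUSG00000031343, chromosome X, 72432681 to 72656848) encodes alpha3, one of the early alpha subunits of the cortex. It had 450 counts in cKO 1 and 467 in cKO 2, against 433 in floxed, or 23.1, 25.1 and 24.3 CPM. The floxed library lay between the 2 cKO libraries, and the ratios were 0.950 (0.831 to 1.09) in cKO 1 and 1.04 (0.907 to 1.18) in cKO 2. Differences within these bounds were not detectable at this depth.

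Gabra5 (ENSMUSG00000055078, chromosome 7, 57407672 to 57510059) encodes alpha5, which carries tonic inhibition in the hippocampus. It had 293 counts in cKO 1 and 309 in cKO 2, against 267 in floxed, or 15.01, 16.6 and 14.97 CPM. Only cKO 2 was visibly above floxed, with a ratio of 1.11 (0.940 to 1.31) against 1.003 (0.847 to 1.19) in cKO 1. Of its exonic length 4.98% overlaps the antisense gene Gm9962, which had 3 counts in cKO 1 and 8 in cKO 2, against 4 in floxed.

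Gabrb2 (ENSMUSG00000007653, chromosome 11, 42419757 to 42629028) encodes beta2, which becomes the most abundant beta subunit of the adult brain. At this age it was barely detected, with 47 counts in cKO 1 and 28 in cKO 2, against 33 in floxed, or 2.41, 1.51 and 1.85 CPM. Its ratios fell on either side of 1, at 1.30 (0.817 to 2.10) in cKO 1 and 0.815 (0.474 to 1.39) in cKO 2. At this depth a change of the size seen for Gabra4 or Gabrb1 was not detectable in it.

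Across the 7 genes, 5 were higher in both cKO libraries at any size, where 27.6% of tested genes were, and Gabra3 and Gabrb2 split between the libraries. By more than counting error in both, 2 of 7 were higher and none lower, where 5.18% of tested genes were higher and 7.55% lower. The medians of the 7 were log2 0.33 in cKO 1 and 0.31 in cKO 2, and those of Gabra3, Gabra5 and Gabrb2 alone 0.00 and 0.05. With Gabra2 included the 7 genes summed to 192 CPM in cKO 1 and 152 CPM in cKO 2, against 103 CPM in floxed. Without it they summed to 70.3 CPM and 74.3 CPM, against 63.7 CPM, so most of the difference in the sum was that of Gabra2. The edgeR quasi-likelihood test of cKO against floxed called 0% of the 16658 genes at an adjusted p under 0.05, none of the 7 among them, with 217 genes at an unadjusted p under 0.05. DESeq2 called 5, or 0.03%, and 1 of these was Gabra2, which is no support for a gene chosen on the same counts.

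The 5 further subunit genes were low in every library, with at most 80 counts. None lay beyond counting error in both cKO libraries, where 12.7% of all tested genes did so in 1 direction. With so few genes and reads, nothing is read from that count. Gabrg3 (gamma3), Gabrd (the delta subunit of extrasynaptic receptors) and Gabrq (theta) ranged from 1.35 to 4.48 CPM over all libraries, with every interval including 1. Gabre (epsilon) had 3.07 CPM in cKO 1 and 1.61 CPM in cKO 2, against 1.74 CPM in floxed, and only the first lay beyond counting error. Gabrr2, a rho subunit known from the retina, had 13 and 12 counts in the cKO libraries, against 4 in floxed, with intervals from below 1 to above 12. The medians of the 5 were log2 0.09 in cKO 1 and -0.11 in cKO 2, and their sums were 11.8 and 10.7 CPM in cKO, against 10.8 CPM in floxed. Gabrr1 was listed with cKO 1 alone, at 3 counts against 1 in floxed, and Gabra6, Gabrp and Gabrr3 were not listed.

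**Figure D2:**
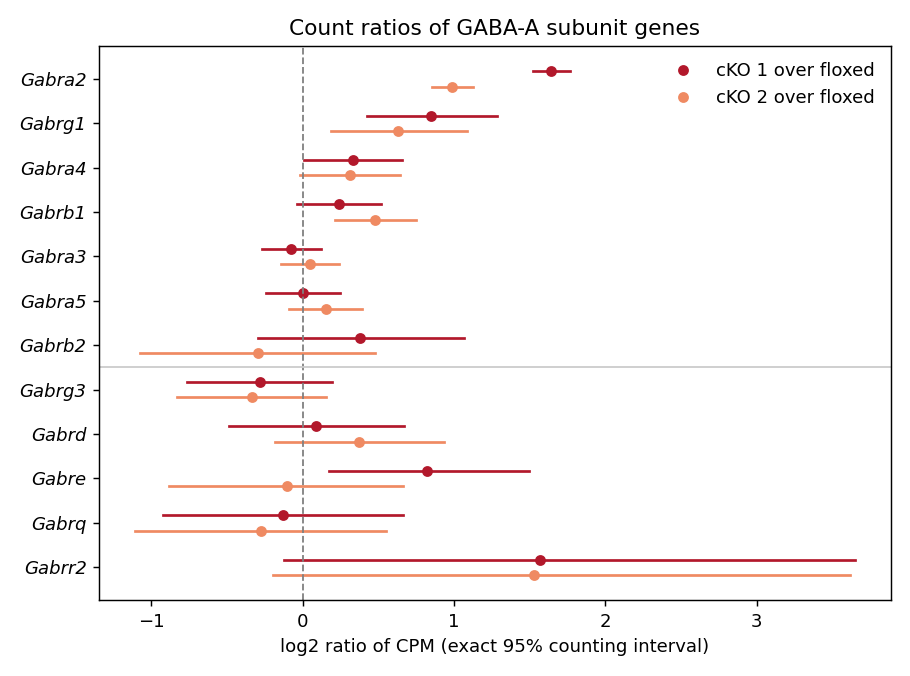
Log2 ratio of CPM of each cKO library over the floxed library for the 7 genes (above the line) and the 5 further subunit genes (below it), with exact 95% counting intervals as bars. Gabra2 lies farthest from 0 among genes with narrow intervals, at 1.64 in cKO 1 and 0.99 in cKO 2, Gabrg1 follows, and most other intervals cross 0 in at least 1 library.

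Levels of different genes were compared as CPM per kb of exon, since longer transcripts collect more reads. On this scale Gabra2 was the highest of the 7 in the cKO libraries, at 15.9 in cKO 1 and 10.1 in cKO 2, while in floxed it stood second, at 5.09, below Gabra3 at 6.19. Gabra3 and Gabra5 came next in the cKO libraries, with intervals that overlapped each other in both. In floxed it was Gabra2 and Gabra5, at 5.09 and 5.03 CPM per kb, whose intervals overlapped. Gabra4 followed at 1.63 in cKO 1 and 1.60 in cKO 2, against 1.29 in floxed, then Gabrb1 at 0.929 and 1.10, against 0.786. Gabrg1 stood at 0.899 in cKO 1 and 0.773 in cKO 2, against 0.499 in floxed. Its interval overlapped that of Gabrb1 in cKO 1 and that of Gabrb2 in floxed. Overlap of separate intervals does not show that 2 levels are equal, and no ratio between genes was taken. Gabrb2 was the lowest in each library, at 0.379 and 0.237 in cKO, against 0.291 in floxed.

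The mix of the 4 alpha transcripts among the 7 genes differed between the groups. Per kb of exon, Gabra2 made up 55.9% of them in cKO 1 (54.0 to 57.7%) and 42.6% in cKO 2 (40.6 to 44.7%), against 28.9% in floxed (26.9 to 31.1%). Gabra3 made up 20.7% in cKO 1 and 27.0% in cKO 2, against 35.1% in floxed, and Gabra5 17.8% and 23.6%, against 28.6%. Gabra3 and Gabra5 thus took smaller shares in cKO although their own CPM differed little, because the sum of the 4 was 28.4 CPM per kb in cKO 1 and 23.7 in cKO 2, against 17.6 in floxed. Gabra4 took 5.72% and 6.75% in cKO, against 7.33% in floxed. In floxed Gabra3 was thus ahead of Gabra2, and in both cKO libraries Gabra2 was ahead. Per kb of the longest coding transcript, a length chosen after seeing the data, the order in floxed turned, with Gabra2 at 32.0% and Gabra3 at 31.9%.

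**Figure D3:**
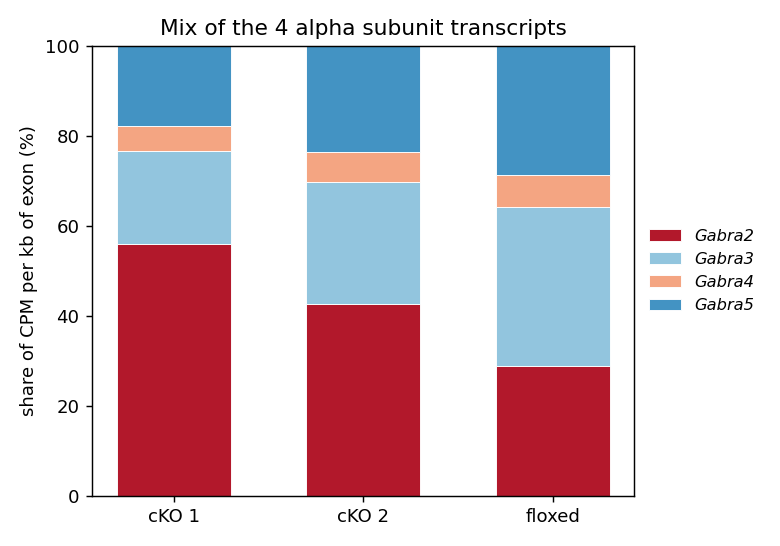
Share of Gabra2, Gabra3, Gabra4 and Gabra5 in each library, in percent of their summed CPM per kb of exon. The Gabra2 segment is 55.9% in cKO 1 and 42.6% in cKO 2, against 28.9% in floxed, and the Gabra3 and Gabra5 segments are smaller in both cKO bars.

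The genes around the chromosome 5 cluster were taken next, to set the cluster against its surroundings. Of 59 tested genes within 5 Mb on either side, 2 (3.39%) were higher in both cKO libraries by more than counting error and 2 lower, where 5.18% of all tested genes were higher and 7.55% lower, with medians of log2 0.09 in cKO 1 and -0.05 in cKO 2. The higher ones lay over 4 Mb away: the gene model A730089K16Rik, of no assigned function, with 4.25 CPM in cKO 1 and 4.47 CPM in cKO 2, against 2.52 CPM in floxed, and Hopx, a homeodomain-only protein gene of radial glia, with 12.3 and 14.6 CPM, against 9.02 CPM. The lower ones were Limch1, a gene for an actomyosin-regulating protein, with 71.9 and 76.3 CPM in cKO, against 89.7 CPM in floxed, and Slc10a4, a gene for a transporter-like protein of synaptic vesicles, with 5.38 and 5.22 CPM, against 7.62 CPM.

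The nearest listed genes on either side lay within counting error of floxed in each cKO library. Commd8, which begins 7.54 kb after the end of Gabrb1, had 813 counts in cKO 1 and 754 in cKO 2, against 691 in floxed, or 41.7, 40.6 and 38.7 CPM. Gm42653, 187 kb before Gabrg1, had 18 and 9 counts in cKO, against 12 in floxed. Its ratios were 1.37 (0.625 to 3.12) in cKO 1 and 0.720 (0.268 to 1.86) in cKO 2, so on these few reads sizeable changes were not detectable. The widest ratios in the window came from genes with few reads, such as Gm42887 with 2 counts in cKO 1 and 16 in cKO 2, against 1 in floxed.

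**Figure D4:**
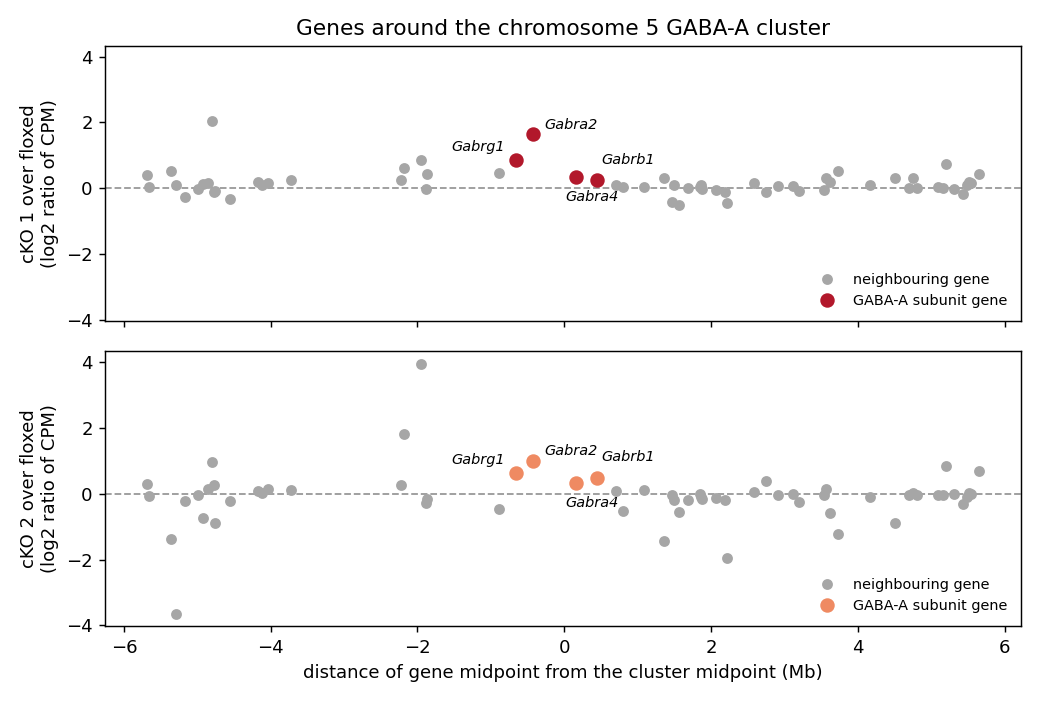
Log2 ratio of CPM of each cKO library over floxed for the 4 cluster genes (coloured, named) and the tested genes within 5 Mb of the cluster (grey), against the distance of the gene's midpoint from the cluster's midpoint in Mb. The 4 named genes lie above 0 in both panels, from 0.24 for Gabrb1 to 1.64 for Gabra2 in cKO 1, while the neighbours' medians are 0.09 in cKO 1 and -0.05 in cKO 2.

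Genes for proteins that place and traffic GABA-A receptors lay on either side of floxed. Of 24 such genes, 5 were higher in both cKO libraries by more than counting error and 4 lower, where 5.18% of all tested genes were higher and 7.55% lower, with medians of log2 -0.03 in cKO 1 and 0.02 in cKO 2. Among the higher were Mdga2, which restrains neuroligins, Trak2, which acts in receptor transport, and Plcl1, which binds the receptor. Mdga2, with the highest ratios of them, had 19.5 CPM in cKO 1 and 20.5 CPM in cKO 2, against 15.9 CPM in floxed. Among the lower were Iqsec3, a partner of gephyrin, and Shisa7 and Lhfpl4, auxiliary receptor proteins. Iqsec3 had 32.4 and 31.7 CPM in cKO, against 41.6 CPM in floxed, and Lhfpl4, which links the receptor to neuroligin 2, had 180 and 182 CPM, against 217 CPM. The gephyrin gene Gphn, the scaffold of these synapses, had 38.1 and 39.0 CPM in cKO, against 37.9 CPM in floxed.

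Of 7 tested genes of GABA-B and glycine receptors and their partners, Kctd12, an auxiliary GABA-B subunit gene, was higher in both, with 76.9 and 65.3 CPM in cKO, against 55.6 CPM in floxed. Gabbr1, a GABA-B receptor subunit gene, was lower in both, with 332 and 322 CPM, against 380 CPM. Of 9 genes of GABA synthesis, transport and chloride handling, none was higher in both and 1 was lower. The lower one was the transporter gene Slc6a11, with 15.8 and 14.2 CPM in cKO, against 30.5 CPM in floxed. Of all tested genes 5.18% were higher in both and 7.55% lower, and nothing is read from the counts of these 2 short lists. The chloride importer gene Slc12a2 had 45.9 CPM in cKO 1 and 30.7 CPM in cKO 2, against 38.1 CPM in floxed. The exporter gene Slc12a5 had 37.1 and 52.5 CPM, against 50.1 CPM, so for both floxed lay between the cKO values. Slc12a2 differed from floxed beyond counting error in both cKO libraries, in opposite directions. Slc12a5 was lower beyond counting error in cKO 1 only.

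Markers of the cell types that could carry these transcripts were summed beside them. Of 10 radial glia markers, 6 were higher in both cKO libraries beyond counting error (Fabp7, Hopx, Nes, Slc1a3, Tnc and Vim) and none lower. Of all tested genes 5.18% were higher and 7.55% lower. The other 4 markers were neither. Pax6 had 71.4 and 70.3 CPM in cKO, against 73.0 CPM in floxed, and Sox2 137 and 116 CPM, against 119 CPM. Hes5 had 11.9 and 15.6 CPM, against 11.3 CPM, and Ptprz1 236 and 195 CPM, against 192 CPM. The 10 marker levels summed to 2694 CPM in cKO 1 and 2608 CPM in cKO 2, against 1995 CPM in floxed, with medians of log2 0.33 and 0.24. The 2 cKO sums were close to each other, but single markers differed between the cKO libraries in either direction. Slc1a3 had 152 CPM in cKO 1 and 116 CPM in cKO 2, and Hopx 12.3 and 14.6 CPM. Of 16 interneuron and ganglionic eminence markers, 1 (6.25%) was higher (Sp8), near the 5.18% of all tested genes, and 3 were lower (Dlx1, Lhx6 and Sp9), against 7.55% of all, and they summed to 730 and 719 CPM in cKO, against 816 CPM in floxed.

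Striatal projection neuron markers (12) summed to 871 CPM in cKO 1 and 739 CPM in cKO 2, against 853 CPM in floxed, with none higher in both and 2 lower. Diencephalic and thalamic markers summed to 323 and 366 CPM in cKO, against 363 CPM in floxed, with 1 of 8 tested higher. Most of each sum was Lhx2 alone, with 265 and 312 CPM in cKO, against 313 CPM in floxed. That sum is thus mainly the level of 1 gene and is not read as an amount of diencephalic tissue. Cortical excitatory neuron markers summed to 3199 and 3103 CPM in cKO, against 3119 CPM in floxed, with 2 of 9 higher and 3 lower. Cajal-Retzius markers (319 and 368 CPM in cKO, against 319 CPM in floxed; 2 of 7 higher) and subplate markers (134 and 132 CPM, against 114 CPM; 1 of 5 tested higher, Moxd1) had no gene lower in both. These lists hold few genes, and their counts stand beside the same 5.18% higher and 7.55% lower of all tested genes. A gene with many reads passes counting error at a smaller ratio. For these lists and those above, the shares of all genes were not matched for depth. No marker of these lists was at 0 in any library, and the part of any of these cell types in the subunit values was not tested.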

How the data were processed

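Per the labels' protocols, libraries were made from total RNA with an Illumina TruSeq kit that does not mark strand. Per the submitters' processing notes, the tools were TopHat2 2.0.12, Bowtie2 2.2.3 and HTSeq 0.6.0, and the build was mm9. Positions in the deposited tables are those of GRCm38, not mm9: of 19968 genes, 19913 had a GENCODE M21 ID, 19896 of these overlapped it and 17844 matched it exactly, as did all 12 subunit genes described. The authors deposited raw counts per gene for 1 cKO and the floxed library in each of 2 tables (21102 and 20633 genes), with their own log2 fold and adjusted p-value, from a test that the sources used here do not give. The floxed counts were identical in all 19968 shared genes and were used once. Library names follow the tables, and numbers pair nothing.

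Counts were divided by library totals (CPM) and, for levels between genes, by exon union length from GENCODE M21. Ratios carry exact 95% conditional binomial intervals, and shares exact binomial intervals of the class counts. Without molecular identifiers both cover counting error only. A count of 0 would allow up to 3 counts, or 0.154, 0.161 and 0.168 CPM. The background test on counts used edgeR 4.0.16 (R 4.3.3, minimum count 10, TMM factors 1.01, 0.978 and 1.01, quasi-likelihood test, Benjamini-Hochberg over 16658 genes). The lone floxed library is assumed there to vary like the cKO libraries (biological coefficient of variation 0.218). DESeq2 1.42.0 was an alternative.

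The genes described, the gene lists and the tests were chosen with earlier results of these data known. Some genes of the family and of these lists are not reported here, and no count or sum over a list includes them. Named were the other subunit genes, Prdm16, the nearest neighbours of the cluster, at most 6 genes of each list and of the neighbours beyond counting error in both cKO libraries (by the smaller absolute log2 ratio), and the 5 genes of at least 5 CPM nearest to Gabra2 and to the cluster mean in their pair of log2 ratios. Gphn, Slc12a2, Slc12a5, Gm42887 and the genes at least as high as Gabra2 were added after their values were seen. Promoter sequences are from RefSeq (GRCm38.p6).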

Additional observations from a re-analysis of the deposited data

How the results depend on the processing

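Of 99 alternative values computed, 89 stayed on their side of the threshold or, without a test, within the spread between cKO libraries, the counting interval or 1.5 times the count, 9 moved beyond it and 1, Gabra2 in DESeq2, passed the threshold. No called value changed sign, but 4 uncalled log2 folds did, some of them taken without a fit from 1 cKO library. Over all genes, edgeR called 0 genes at an adjusted p under 0.05 with TMM, 1 with library totals (Ptx3), and DESeq2 called 5 (Ptx3, Fgf15, Gabra2, Fgfbp3 and Moxd1). The fitted log2 fold of Gabra2 stayed between 1.35 and 1.37 under every scaling, filter and tool tried. With 1 cKO library left out nothing was fitted. The plain difference in log2 CPM from floxed (TMM-scaled, with a small added prior count of 2) was taken instead. For Gabra2 it was 1.03 without cKO 1 and 1.63 without cKO 2. The fitted log2 fold of Gabra3 was 0.01, and -0.01 with library totals, and its plain difference without cKO 2 was -0.08. For Gabra5 the fitted log2 fold was 0.10 and the plain difference without cKO 2 was -0.0034. For Gabrb2 the fitted log2 fold was 0.10 and the plain difference without cKO 1 was -0.24. With totals scaled by TMM or by median-ratio size factors, 3 of the 7 genes were beyond counting error in both cKO libraries, Gabra4 being the one added. Leaving out 1 cKO library replaces "in both" by "in the other", so counts grow by construction: 3 to 3 of the 7 genes, 0 to 1 of the 5 further subunits (Gabre without cKO 2, main 0), 17 to 19 of the chromosome 5 neighbours (main 4), 2 to 4 of the other inhibitory receptor genes (main 2), 5 to 6 of the GABA supply and chloride genes (main 1) and 12 to 13 of the trafficking genes (main 9). With the longest coding transcript in place of the exon union, a length chosen after seeing the data, Gabra2 made up 32.0% of the 4 alpha transcripts in floxed, against 28.9%. DESeq2 has no value for counts of ratios beyond counting error, and with 1 library a group no test over all genes was left. No paired analysis was possible because the floxed group has 1 library, so that the groups share fewer than 2 numbers. Depth limits Gabrb2, Gabrr2 and other genes under about 50 reads, and the single floxed library limits every ratio.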

Other observations

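The genes whose pair of log2 ratios lay nearest to that of Gabra2 (1.64 in cKO 1 and 0.99 in cKO 2), among 11551 other tested genes with a mean of at least 5 CPM, were Veph1, Robo3, 1110032F04Rik, Gm21967 and Fgfbp3. Likeness was the straight-line distance between the pairs over 3 libraries, with the floxed library in each ratio. Veph1, a gene for a melted-family protein with a pleckstrin homology domain, was nearest at a distance of 0.190, with 30.3 CPM in cKO 1 and 23.0 CPM in cKO 2, against 10.9 CPM in floxed. Its span holds Ptx3 on the other strand, whose reads cannot be told apart where exons overlap. Robo3, a Robo-family axon guidance receptor gene, had 13.5 and 10.3 CPM in cKO, against 4.43 CPM in floxed, and Fgfbp3, a gene for an FGF-binding protein, had 79.8 and 64.5 CPM, against 33.0 CPM.

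Nearest to the mean pair of the 4 cluster genes (0.77 and 0.60) were Shisa9, 3632451O06Rik, Lpar6, Filip1 and Lxn. Shisa9, which encodes an auxiliary protein of AMPA-type glutamate receptors, lay at a distance of 0.0316, with 21.5 CPM in cKO 1 and 18.9 CPM in cKO 2, against 12.4 CPM in floxed. With 2 ratios per gene and 11548 candidates a near neighbour is easily found, and nothing is read from it.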
